A study of Mus musculus with 5 samples.

Results

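Pax6, Six3, Lhx9, Lhx2 and Emx2, all homeobox genes that take part in building the forebrain and the eye, were followed across single cells from the blood of mouse embryos. They are 5 of the 24411 genes in the deposited table, and they were chosen by their levels per cell, with earlier results of the same data known. Their levels and their co-expression are therefore given as a description. The cells came from wild-type C57BL/6 embryos at embryonic day (E) 9.5, in 2 batches, and at E10, in 3 batches. In all 5 batches blood was taken from the heart, and cells that lacked TER119, CD41, CD43 and CD45, proteins of the red cell, megakaryocyte and leukocyte lineages, were sorted and then picked singly. A batch is a replicate here, and nothing states that batches came from separate litters, so p-values measure the spread between batches only.

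Homeobox proteins bind DNA through a homeodomain, many of them at sites built around the core TAAT. Pax6 is needed for the eye, the cortex and the pancreas, and Six3 for the rostral forebrain and the eye field, the patch of neural plate that becomes the retina. Lhx2 and Lhx9 are related LIM homeodomain factors: Lhx2 acts in the optic vesicle, the cortex and the limb bud, and Lhx9 in the diencephalon, the limb bud and the gonad ridge. Emx2 patterns the cortex and is also needed for the kidney and gonads. Prrx1, with which the 5 genes are compared, is a homeobox gene of limb, head and body wall mesenchyme.

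Cells entered with 1000 genes or more and 30000 or more unique molecular identifiers (UMIs), each of which marks 1 captured RNA molecule. This left 294 cells, 26 and 46 in E9.5 replicates 1 and 2 and 87, 72 and 63 in E10 replicates 1, 2 and 3. Their depth ran from 31294 to 1407021 UMIs, and the median per batch from 144700 in E9.5 replicate 2 to 485700 in E10 replicate 1. The same 96 well numbers occur in every batch, and of the kept wells at under 10% of the depth of the same-numbered well elsewhere none matched it. Levels are CPM, the UMIs of a gene scaled to a total of 1000000 in its cell, and a cell is called on for a gene at 50 CPM or more, which at these depths means at least 2 UMIs. E10 replicate 1 stood apart from the other batches. It held 22 of 22 cells of a cluster led by Dppa5a and other genes of pluripotent and germ cells, and all 6 of 6 fixed markers of such cells had UMIs there. Their summed level ran from 0 to 6574 CPM, with a median of 9.08, and reached 50 CPM in 29 of the 87 cells. In the other 4 batches the same sum had a median of 0 and never passed 11.9 CPM, and Pou5f1 and Dppa3 were at 0 UMIs. Results that rest on E10 replicate 1 are given with and without it.

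The label of a forebrain and eye group was checked against the cells, and no set of cells carried the 5 genes together. No kept cell was on for 4 or 5 of them, and the fixed neural progenitor markers gave no cluster its name. Of 22 other regulators of the forebrain and eye field, Rax, Six6, Vax1, Nkx2-1, Fezf1 and Fezf2 had no UMI in any kept cell, where 3 UMIs would have made 0.0286 CPM. That is 27.3% of the list, near the 27.7% of all 24411 genes. Of the other 16, Nr2f1 was on in 41 of the 48 cells on for at least 1 of the 5 genes, Tbx3 in 20 and Bmp4 in 16, and the remaining regulators in at most 2. In the 246 cells on for none of the 5 genes, Nr2f1 was on in 129, Tbx3 in 85 and Bmp4 in 59, so none of the 3 is particular to the 48 cells. Nr2f1, Tbx3 and Bmp4 are also known from mesenchyme. Of the 48 cells on for at least 1 gene, 40 lay in clusters without a name, most of them with mesenchymal markers. Another 6 lay in the pluripotent or germ cell-like cluster and 2 in neuron or neural crest-like cells. The 5 genes are therefore described one by one and by the pairs that shared cells.

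The genes lie apart in the genome, in GRCm38, the assembly also called mm10. Pax6 spans chr2:105668900-105697364 on the plus strand, Six3 chr17:85613608-85629302 (+), Lhx9 chr1:138825186-138848577 (-), Lhx2 chr2:38339281-38369733 (+) and Emx2 chr19:59458372-59465357 (+). Antisense genes overlap 3 of them in the counted table, and whether counting used strand is not stated. Pax6os1 had no UMI in kept cells, Six3os1 had 37 in 1 cell, and Emx2os had 265.

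The promoter windows of the 4 genes that hold the homeodomain core are shown, as RefSeq gives them for GRCm38.p6, 250 bases before the start and 50 after it. Capitals mark TAAT or its reverse complement ATTA, searched on both strands. The windows are chr2:105668646-105668945 (+) for the first of 2 starts of Pax6, chr17:85620584-85620883 (+) for Six3, chr1:138842395-138842694 (-) for Lhx9 and chr19:59458440-59458739 (+) for Emx2.
Pax6: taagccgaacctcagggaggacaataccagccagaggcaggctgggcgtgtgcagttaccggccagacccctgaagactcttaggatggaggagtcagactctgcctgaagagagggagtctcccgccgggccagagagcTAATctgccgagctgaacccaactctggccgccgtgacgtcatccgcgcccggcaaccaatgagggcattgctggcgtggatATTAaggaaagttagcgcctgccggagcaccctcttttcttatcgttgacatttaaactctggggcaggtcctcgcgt
Six3: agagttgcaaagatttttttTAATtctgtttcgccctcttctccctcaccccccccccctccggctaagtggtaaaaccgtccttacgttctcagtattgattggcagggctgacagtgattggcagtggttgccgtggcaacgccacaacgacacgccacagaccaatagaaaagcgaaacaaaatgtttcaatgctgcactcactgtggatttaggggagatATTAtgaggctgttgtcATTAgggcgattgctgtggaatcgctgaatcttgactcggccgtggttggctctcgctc
Lhx9: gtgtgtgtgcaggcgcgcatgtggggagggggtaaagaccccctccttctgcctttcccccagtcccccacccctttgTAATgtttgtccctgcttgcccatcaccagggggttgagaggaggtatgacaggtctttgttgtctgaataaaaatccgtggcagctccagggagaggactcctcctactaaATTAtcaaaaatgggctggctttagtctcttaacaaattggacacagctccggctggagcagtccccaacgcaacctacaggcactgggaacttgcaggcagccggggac
Emx2: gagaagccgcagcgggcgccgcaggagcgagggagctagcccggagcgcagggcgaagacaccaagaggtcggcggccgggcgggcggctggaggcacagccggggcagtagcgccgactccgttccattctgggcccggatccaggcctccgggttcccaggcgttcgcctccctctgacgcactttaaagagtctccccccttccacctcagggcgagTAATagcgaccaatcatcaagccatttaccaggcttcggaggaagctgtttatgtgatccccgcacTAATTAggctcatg
The core occurred 2 times in the Pax6 window shown, 3 times in that of Six3, 2 times in that of Lhx9 and 3 times in that of Emx2. The window of the second Pax6 start, chr2:105682213-105682512 (+), is not shown and also held it 2 times. Neither of the 2 Lhx2 windows held it. TAATTA, in which the core stands on both strands and overlaps itself, was found in the Emx2 window only. Of 32851 mouse promoter windows of this length, 58.0% held TAAT and 5.29% held TAATTA, so TAAT is common in such windows. A match is a run of letters and says nothing of binding.

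Pax6, a paired-domain factor, was spread thinly over nearly all cells of a single batch. In E10 replicate 1 it had a UMI in 74 of 87 cells, 85.1% (95% exact binomial interval 75.8 to 91.8). No E9.5 cell had one, 6 of 72 cells (8.33%) did in E10 replicate 2 and 6 of 63 (9.52%) in replicate 3. Cells of E10 replicate 1 were the deepest. With every cell thinned to 30000 UMIs, the expected share was still 38.6% there and at most 3.22% elsewhere. The UMI counts were 0 and 0 at E9.5 and 1081, 30 and 22 in the E10 batches, so E10 replicate 1 held 95.4% of all Pax6 UMIs. In that batch the median cell had 6 UMIs, the middle 50% of cells lay between 1 and 14.5, the highest had 164, and 13 cells had none. Pax6 was on in 14 cells, 13 of them in E10 replicate 1 and 1 in replicate 3. Just inside the limit stood a cell at 52.9 CPM, and just outside one at 48.3.

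Six3, a Sine oculis-type factor, was also found mostly in E10 replicate 1. It had a UMI in 63 of 87 cells of E10 replicate 1, 72.4% (61.8 to 81.5), and in 3.85%, 0%, 1.39% and 3.17% of the cells of E9.5 replicates 1 and 2 and E10 replicates 2 and 3. The expected share at 30000 UMIs was 29.8% in E10 replicate 1 and at most 0.324% elsewhere. Its UMIs numbered 1 and 0 at E9.5 and 894, 1 and 2 at E10, which puts 99.6% of them in E10 replicate 1. There the median cell had 3 UMIs, the highest 148, and 24 cells none. All 9 cells on for Six3 were from this batch, with 52.1 CPM in the lowest and 788.9 in the highest. The highest cell outside the limit was at 49.1 CPM.

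**Figure D1:**
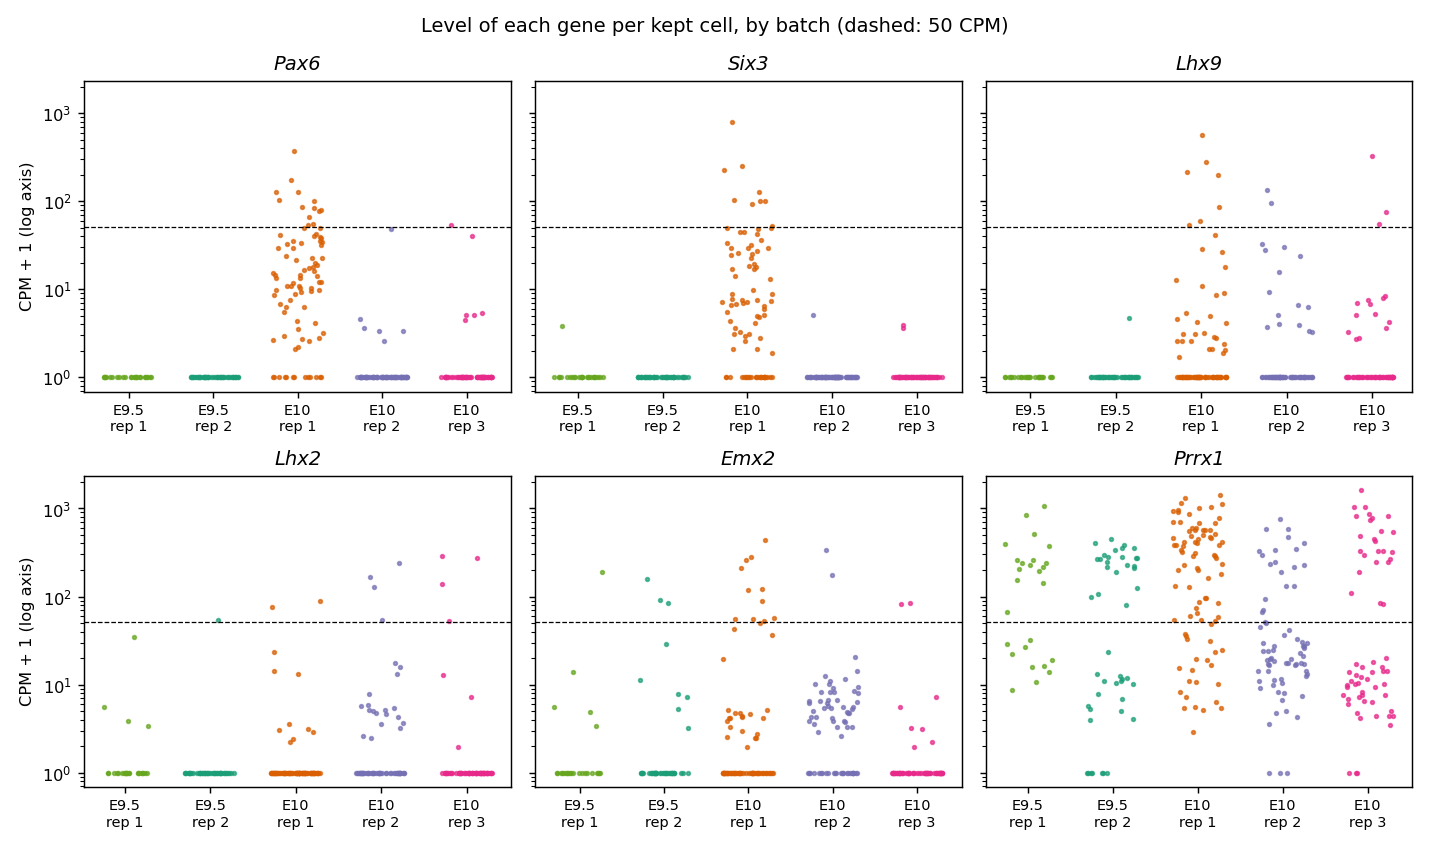
Level of each gene and of Prrx1 in every kept cell, as CPM + 1 on a log axis, by batch; each point is 1 cell and the dashed line marks 50 CPM. Pax6 and Six3 had a UMI in 85.1% and 72.4% of the cells of E10 replicate 1 and in under 10% of every other batch, while Lhx9, Lhx2 and Emx2 reached the line in a few cells of several batches.

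Few genes of the table shared this pattern. With a UMI in at least 70% of the cells of E10 replicate 1 and in at most 10% of every other batch, a limit set after the values of Pax6 and Six3 were seen, only Dppa5a, Pax6 and Six3 were found among 24411 genes. By the same limit 4 genes were found for E10 replicate 2 (Hoxa11os, Hoxd11, Hs3st1 and Uncx), and none for the other 3 batches. A limit of 50% and 10% gave 9 genes for E10 replicate 1, which added Fam25c, Pla2g1b, Tdgf1, Tdh, Trh and Zfp42. Several of these, with Dppa5a, are known for pluripotent cells. Within the batch, Pax6 and Six3 did not keep to the Dppa5a-led cluster. Pax6 had a UMI in 81.8% of its 22 cells (59.7 to 94.8) and in 86.2% of the other 65 (75.3 to 93.5), and Six3 in 72.7% (49.8 to 89.3) and 72.3% (59.8 to 82.7). The median depths were 571100 and 460700 UMIs. The part that the markers of pluripotent cells have in this pattern was not tested, nor was it tested whether the Pax6 and Six3 UMIs of this batch came from the RNA of the picked cells themselves.

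By rank correlation, the UMIs of both genes in E10 replicate 1 were weakly related to the depth of the cell. Across the 87 cells, Spearman's rho with total UMIs was 0.166 for Pax6 and 0.186 for Six3. It was as weak for Lhx9, Lhx2 and Emx2, at 0.147, 0.0915 and 0.156, and 0.244 for Dppa5a. The same measure was 0.704 for Actb, a cytoskeletal gene, 0.888 for Eef1a1, a translation factor, and 0.320 for Prrx1. The median count still rose with depth. It was 8 UMIs of Pax6 in cells at or above the median depth and 4 in those below it, and 3.5 and 2 for Six3. For Actb it was 2510 and 1360, for Eef1a1 2200 and 1270, and for Prrx1 204 and 56. With so few UMIs per cell, a low rho for Pax6 and Six3 does not show that their counts are unrelated to depth. In the 1 erythroid-like cell of the batch, at 696000 UMIs, both Pax6 and Six3 were at 0. These correlations are over cells of 1 batch that share a library, and are a description.

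**Figure D2:**
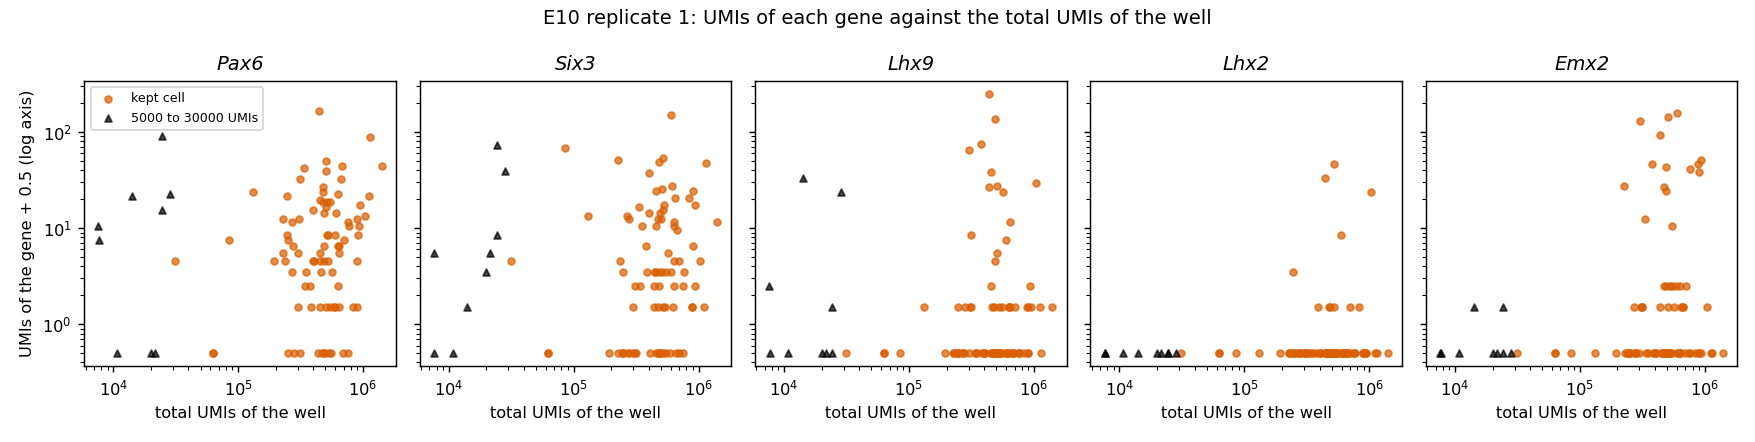
UMIs of each gene, plus 0.5, against the total UMIs of the well in E10 replicate 1, both on log axes; circles are the 87 kept cells and triangles the 9 wells with 5000 to 30000 UMIs that were left out. Pax6 and Six3 spread over a wide range at any depth (rho 0.166 and 0.186), while Lhx9, Lhx2 and Emx2 were at 0 or 1 UMI in most cells and high in few.

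Lhx9, a LIM homeodomain factor, was high in few cells. Its UMIs numbered 0 and 1 at E9.5 and 723, 107 and 206 in E10 replicates 1, 2 and 3. The 12 cells on for it were 7, 2 and 3 of these E10 batches, and none was from E9.5. The 5 highest cells held 64.9% of its UMIs, and the highest stood at 566.4 CPM. Of the 66 cells with a UMI, 44 had 1 to 3. The gap around the limit was wide, from 40.7 CPM below it to 53.1 above.

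Lhx2, the other LIM homeodomain factor, was the least concentrated in E10 replicate 1, which held 23.3% of its UMIs. The UMIs numbered 16 and 5 at E9.5 and 119, 145 and 225 at E10. It was on in 0 and 1 cells of the E9.5 batches and in 2, 4 and 4 of the E10 batches, 11 in all. The highest cell, in E10 replicate 3, was at 288.4 CPM. No cell lay between 33.9 CPM, the highest outside the limit, and 52.0, the lowest inside it.

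Emx2 was on in all 5 batches, in 1 and 3 cells at E9.5 and 11, 2 and 2 at E10. Its UMIs numbered 31 and 42 at E9.5 and 911, 156 and 38 at E10, with 77.3% in E10 replicate 1. The highest cell was at 435.3 CPM. A UMI was present in 63.9% of the cells of E10 replicate 2, although only 2 of the 72 were on. Of all 101 cells with a UMI of Emx2, 72 had 1 to 3.

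Erythroid-like cells, which are not known for these genes, give a level to read low counts against. Of the 46 kept erythroid-like cells (median depth 371300 UMIs), 26.1% had a UMI of Lhx9, 23.9% of Lhx2 and 47.8% of Emx2. In the other 248 cells (median 293300) the shares were 21.8%, 13.7% and 31.9%. Low counts of these 3 genes are therefore not read as expression here, and their source was not tested. For Pax6 the shares were 4.35% and 33.9%, and for Six3 0 of 46 cells and 27.0%. Only 1 of the erythroid-like cells is from E10 replicate 1, and 23 are from replicate 2, so the comparison has almost no cells of the batch that holds most UMIs of Pax6, Six3, Lhx9 and Emx2. In E10 replicate 1 that cell had no UMI of Lhx9 or Emx2, against 39.5% and 38.4% of the other 86 cells. In E10 replicate 2 the shares were 26.1% and 20.4% for Lhx9, 34.8% and 28.6% for Lhx2, and 65.2% and 63.3% for Emx2. No erythroid-like cell was on for any of the 5 genes; the highest values were 2.65 CPM for Pax6, 14.7 for Lhx9 and for Lhx2, and 19.8 for Emx2.

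**Figure D3:**
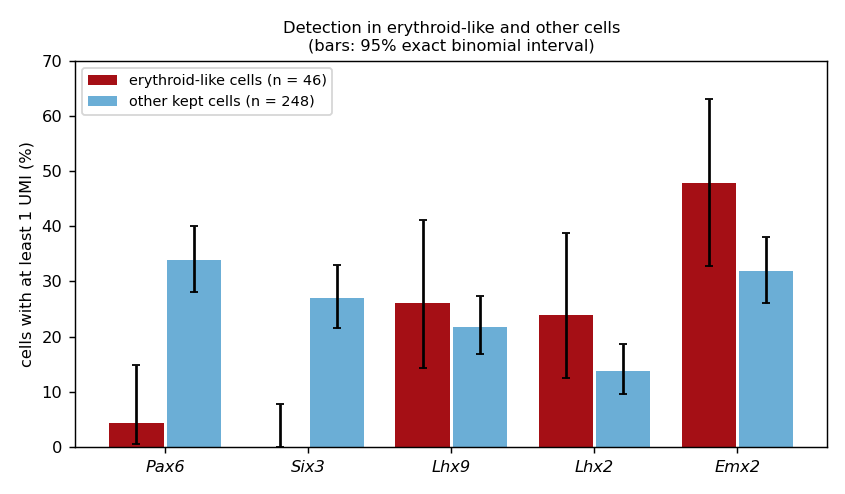
Share of cells with at least 1 UMI of each gene, in percent, in the 46 erythroid-like cells and the 248 other kept cells of all batches; error bars are 95% exact binomial intervals, which cover counting error only. Lhx9, Lhx2 and Emx2 were detected in 26.1%, 23.9% and 47.8% of the erythroid-like cells, of which 1 is from E10 replicate 1, and Six3 in none of them.

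The genes were mostly on in different cells. Of 294 cells, 246 were on for none, 33 for 1 gene, 13 for 2 and 2 for 3. The 2 cells on for 3 genes were both from E10 replicate 1, and make 0.68% of the kept cells (0.0825 to 2.44%). One, in well 4, was at 372.3 CPM of Pax6, 59.0 of Lhx9 and 74.9 of Lhx2. The other, in well 17, was at 52.9 CPM of Pax6, 224.7 of Six3 and 118.9 of Emx2. Both were high for Prrx1, at 1165 and 1110 CPM. Without E10 replicate 1, or with a limit of 100 CPM, no cell was on for 3.

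In these 2 cells Nr2f1, a nuclear receptor gene of cortex and mesenchyme, averaged 911.8 CPM, and Shox2, a limb homeobox gene, 363.1. Nes, which encodes an intermediate filament of neural progenitors and of other cells, averaged 253.2 CPM and Wt1, a factor of coelomic epithelium, kidney and gonad, 136.7. Ssbp3, a cofactor that joins LIM homeodomain complexes, averaged 1113 CPM. No UMI of Otx2 or Sox3 was found in either. The mean Shox2 level of the cells on for none of the 5 genes was 60.1 CPM and that of Nr2f1 281.1.

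Pax6 and Six3 were on together in 5 cells, all of E10 replicate 1, which is 35.7% of the Pax6 cells and 55.6% of the Six3 cells. In well 12 both stood at 127.8 CPM, in 4 UMIs each of 31294. In well 17 they were at 52.9 and 224.7 CPM, and in well 33 at 54.3 and 100.3. In well 84 Pax6 was at 82.4 CPM and Six3 at 788.9, and in well 89 they were at 175.3 and 99.1. The 5 cells differed in their other genes. Well 33 had 3331 CPM of Dppa5a and 4.18 of Prrx1, well 17 had 1110 of Prrx1, well 12 had 766.9 of Otx2, a head and forebrain gene, and well 84 lay among the neuron or neural crest-like cells. Pearson's r of the 2 genes on log2(CPM + 10) was 0.343 over the 87 cells of E10 replicate 1 and -0.02 over the 207 cells of the other batches.

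Few of the other forebrain and eye regulators were on in most Pax6 or Six3 cells, as was true of all genes of the table. Of the 22 other forebrain and eye regulators, 1 was on in at least 50% of the 14 Pax6 cells, or 4.55%, against 10.3% of all genes of the table. That gene was Nr2f1, with a mean of 786.2 CPM. In the 9 Six3 cells it was joined by Tbx3, a T-box gene of the ventral forebrain, retina and limb, at 120.1 CPM, and 2 of the 22 (9.09%) compare with 8.44% of all genes. Otx2 averaged 59.9 CPM in the Pax6 cells and 92.7 in the Six3 cells, most of it from well 12. Zic1, a zinc finger gene of the neural tube and somites, averaged 73.0 and 113.6 CPM, from 32 UMIs (1023 CPM) in the same well, which has 31294 UMIs; the gene has 35 UMIs in all kept cells. Of 10 neural progenitor genes, 1 (10%) was on in at least 50% of the Pax6 cells and 2 (20%) of the Six3 cells. Sox2, a factor of neural progenitors and pluripotent cells, was on in 4 of 14 and 3 of 9, and Ncam1, an adhesion molecule, in 9 and 6. None of 7 genes reported as their targets elsewhere (Neurog2, Atoh7, Cryaa, Foxe3, Wnt1, Wnt8b and Shh) had a UMI in the cells on for either. In the kept cells as a whole, Cryaa, Foxe3, Wnt1 and Shh were at 0 too, and Neurog2, Atoh7 and Wnt8b had 9, 1 and 22 UMIs. The lack of the 7 genes is therefore not particular to these cells. Hox genes, whose activity in the embryo begins behind the forebrain, summed to at least 50 CPM in 13 of the 14 Pax6 cells and 8 of the 9 Six3 cells. In all kept cells the sum was below 50 CPM in 31 of 294. In E10 replicate 1, which holds 13 of the Pax6 cells and all 9 Six3 cells, it was below 50 CPM in 3 of 87. Such Hox sums are therefore usual in that batch and not particular to these cells.

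Lhx9 and Lhx2 were on together in 5 cells of 3 batches, 41.7% of the Lhx9 cells and 45.5% of the Lhx2 cells. E10 replicate 1 gave 1 of them, replicate 2 gave 1 and replicate 3 gave 3. In well 4 of replicate 1 the levels were 59.0 CPM of Lhx9 and 74.9 of Lhx2, and in well 23 of replicate 2 they were 95.6 and 127.5, from 3 and 4 UMIs of 31384. In replicate 3, well 21 had 74.7 and 273.9 CPM, well 76 had 54.5 and 136.2, and well 77 had 325.1 and 52.0. All 5 cells were on for Prrx1, at 242.8 to 1165 CPM, against 49.1% of the other kept cells. Those include all 46 erythroid-like cells, none of which was on for Prrx1. Over the 207 cells outside E10 replicate 1 the r of the 2 genes was 0.573, and within it 0.109.

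The cells with both LIM factors were on for several mesenchymal genes. Hoxc10, a Hox gene of the hindlimb and lumbosacral level, averaged 289.7 CPM and was on in 4 of the 5, and Pitx1, a homeobox gene of the hindlimb and of the first arch, averaged 82.6 CPM and was on in 3. Twist1, a mesenchymal bHLH gene, averaged 186.5 CPM, Alx4 97.7 and Shox2, on in 2 of the 5, 143.9. Of 39 Hox genes, 2 (5.13%) were on in at least 50% of these cells, against 12.1% of all genes. Well 4 of E10 replicate 1 stood apart, with no UMI of Pitx1 or Hoxc10 but 572.1 CPM of Shox2 and 211.1 of Alx4. Of 15 head and periocular mesenchyme genes, 6 (40%) were on in at least 50% of the 5 cells, and of 14 limb bud genes 1 was. Wt1 averaged 8.19 CPM and Nr5a1 was at 0. In all 11 Lhx2 cells, Pitx1 averaged 150.0 CPM and was on in 7, and Hoxc10 averaged 226.7 and was on in 8, against means of 16.1 and 36.6 CPM in cells on for none of the 5 genes. Both genes also differed by batch. In normalised batch sums Hoxc10 was at 1.9 and 0 CPM at E9.5 and 3.3, 110.6 and 39.6 at E10. Pitx1 was at 2.9 and 2.6, then at 11, 55.65 and 15.2. E10 replicates 2 and 3 gave 4 Lhx2 cells each, so the contrast mixes cells with batches. The 1 Lhx2 cell of E9.5 had neither, nor Prrx1, and stood at 561.5 CPM of Wt1.

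Lhx9 and Emx2 were on together in 4 cells, all of E10 replicate 1 and none on for Prrx1. They are 33.3% of the Lhx9 cells and 21.1% of the Emx2 cells. In well 20 Lhx9 was at 212.7 CPM and Emx2 at 435.3, in well 53 at 280.0 and 88.5, in well 56 at 199.1 and 122.1, and in well 57 at 566.4 and 212.4. Each had 64 to 248 UMIs of Lhx9 and 43 to 131 of Emx2, and both genes were above the highest erythroid-like level of 19.8 CPM in each. Prrx1 stood between 5.31 and 47.4 CPM in them. The r of the 2 genes was 0.499 over the cells of E10 replicate 1 and -6.37e-05 over the other cells.

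Wt1 was high in all 4, at 837.3, 401.5, 610.5 and 431.7 CPM in wells 20, 53, 56 and 57. Gata4, a zinc finger factor of heart, coelomic epithelium and gonad ridge, was at 418.7, 348.0, 236.2 and 43.4 CPM. Nr5a1, which encodes SF-1, the factor of the adrenal and gonad primordium, was at 89.7, 0, 47.8 and 260.4 CPM, and its mean in cells on for none of the 5 genes was 0.375. Aldh1a2, which makes retinoic acid, ran from 196 to 1229 CPM. Hoxc8, a Hox gene of the trunk, ran from 322 to 544.1 CPM, and the sum of all Hox genes from 1073 to 1375. Of 10 listed genes of coelomic epithelium, gonad and kidney, 5 (50%) were on in at least 50% of these cells, against 17.2% of all genes. High Wt1 and Gata4 with low Prrx1 were not confined to this pair or batch. Well 32 of E10 replicate 2 was on for Lhx9 at 131.8 CPM, with Emx2 at 4.32. It had 363 CPM of Wt1, 350 of Gata4 and 6.48 of Prrx1, but 0 of Nr5a1 and 8.64 of Hoxc8. The pair of genes was chosen after its values were seen, and the 4 cells on for both come from 1 batch, so no test is given.

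**Figure D4:**
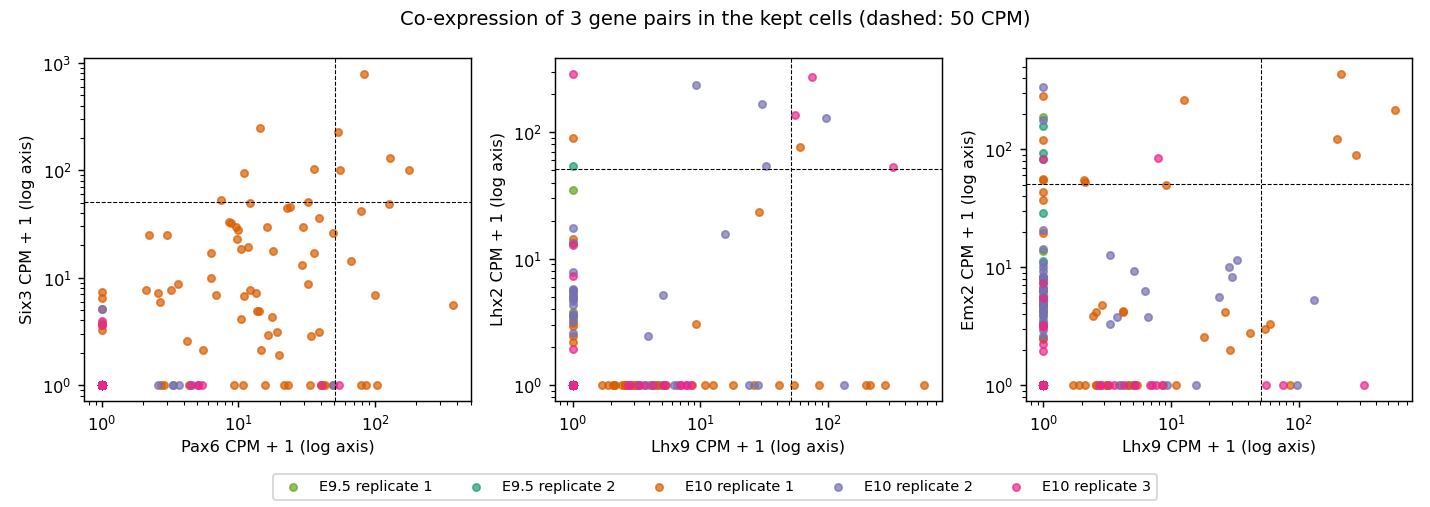
Level of 3 gene pairs in each of the 294 kept cells, as CPM + 1 on log axes, coloured by batch; dashed lines mark 50 CPM. Cells above and to the right of the lines of a panel were on for both genes, which are 5 cells for Pax6 and Six3, 5 for Lhx9 and Lhx2 and 4 for Lhx9 and Emx2.

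The other combinations were rare. Pax6 and Emx2 were on together in 2 cells, and Pax6 with Lhx9, Pax6 with Lhx2 and Six3 with Emx2 in 1 cell each. Six3 with either LIM factor, and Lhx2 with Emx2, were on together in none of the 294. With 9, 12, 11 and 19 cells on for Six3, Lhx9, Lhx2 and Emx2, so few cells leave little room to see an overlap.

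Prrx1 was on in 147 of 294 cells and in 37 of the 48 cells on for at least 1 gene, 77.1% (62.7 to 88.0). In cells on for none it was on in 44.7% (38.4 to 51.2). These include all 46 erythroid-like and all 14 haematopoietic progenitor-like cells, none of which was on for Prrx1. The 2 shares therefore also differ by the mix of cell types and batches. By gene, Prrx1 was on in 12 of 14 Pax6 cells, 8 of 9 Six3 cells, 6 of 12 Lhx9 cells, 10 of 11 Lhx2 cells and 13 of 19 Emx2 cells. The Lhx9 cells fell into both kinds, from 1165 CPM of Prrx1 in well 4 of E10 replicate 1 to 5.31 in well 56. In E10 replicate 1, where most Pax6 and Six3 cells lie, Prrx1 was on in 64 of all 87 cells (73.6%). Across the 87 cells the r with Prrx1 was 0.0391 for Pax6, -0.08 for Six3, -0.21 for Lhx9, 0.16 for Lhx2 and 0.0723 for Emx2.

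**Figure D5:**
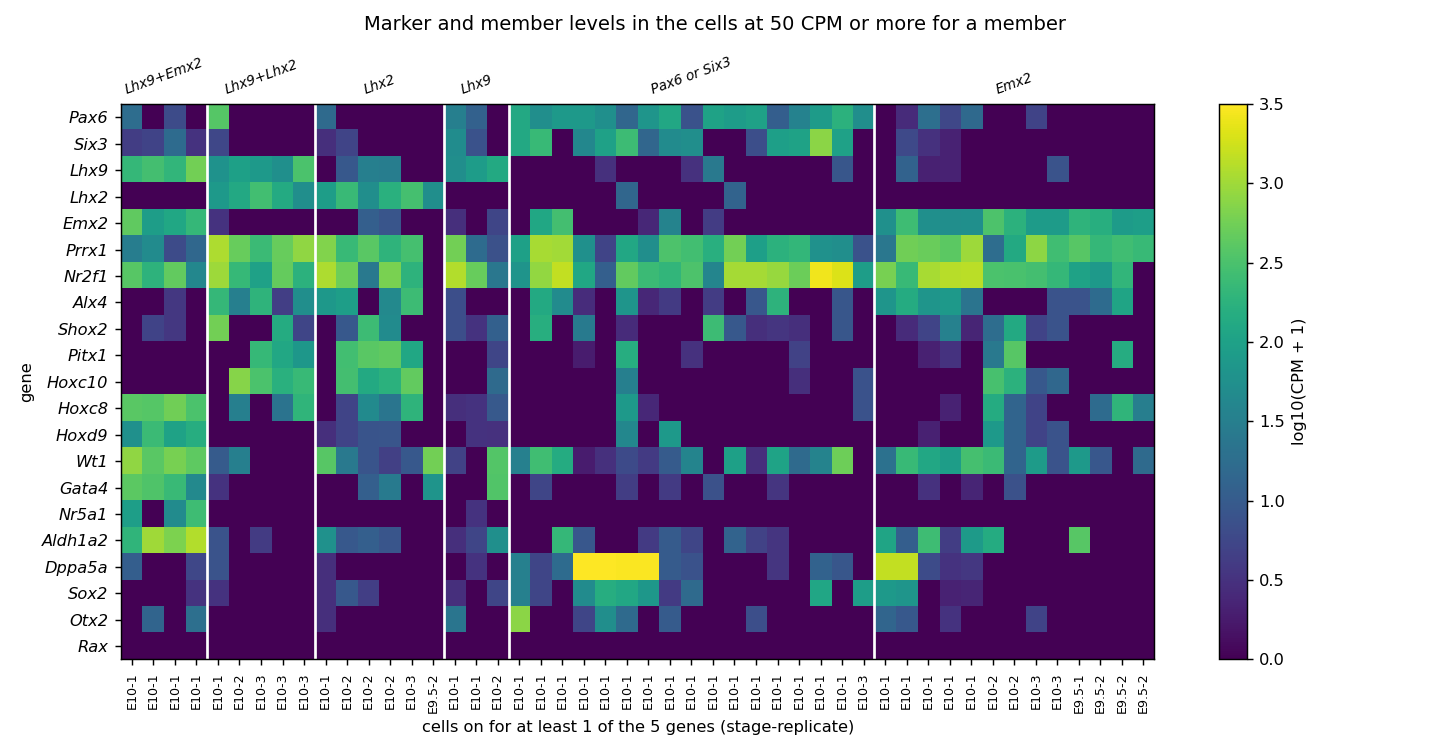
Levels, as log10(CPM + 1), of the 5 genes, Prrx1 and 15 other genes in the 48 cells on for at least 1 of the 5; columns are cells, named by stage and replicate and set in groups by the genes they were on for. The 4 cells on for Lhx9 and Emx2 had 401.5 to 837.3 CPM of Wt1, the 5 on for Lhx9 and Lhx2 had 242.8 to 1165 CPM of Prrx1, and Rax was at 0 in every column.

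The cofactors through which these proteins act were present widely. Of 20 listed genes, which include the Ldb and Ssbp adaptors and Lmo competitors of LIM factors and the Eya, Dach and Tle partners of Six-type factors, 8 (40%) were on in at least 50% of the cells on for Pax6, and the same number for Lhx9, for Lhx2 and for Emx2. In the Six3 cells 6 (30%) were, and over all kept cells 20% of the list. Of all genes of the table, 10.3%, 12.6%, 11.1%, 11.03% and 8.44% were on so often in the Pax6, Lhx9, Lhx2, Emx2 and Six3 cells. Ldb1, the adaptor that LIM homeodomain proteins need, averaged 107.7 CPM in Lhx9 cells, 80.6 in Lhx2 cells and 79.0 in cells on for none. Tle3, a Groucho-type corepressor, averaged 234.9 CPM in the cells on for Lhx9 and Emx2. Gmnn, a replication licensing protein that Six3 is known to bind, averaged 98.0 CPM in Six3 cells and 143.9 in cells on for none.

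For each gene the 5 most similar were named by Pearson's r on log2(CPM + 10) over the 294 cells, among 11903 genes with a UMI in at least 10% of cells. Pax6 was most like Gpm6a, a neuronal membrane glycoprotein gene, with r of 0.605, which was 0.382 within E10 replicate 1. Next came Sox4, Nr2f1, Adgrb3 and Bdnf, at 0.397 to 0.372. Six3 was also most like Gpm6a (0.519), then Trh, Otx2, Tdgf1 and Utf1 at 0.420 to 0.381. Without E10 replicate 1 no r of these 10 pairs passed 0.194, and within it they ran from 0.0346 to 0.382.

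Lhx9 was most like Sh3bgr, with r of 0.403, then Ildr2, Frmd7, Fah and Gucy1a3. Lhx2 was most like Pitx1 (0.398), which was 0.458 without E10 replicate 1 and 0.667 within E10 replicate 3, and then Hoxc10 (0.372), Hoxa10, Alx4 and Gm15708. Emx2 was most like E330013P04Rik, with r of 0.576 over all cells and 0.498 without E10 replicate 1. Rspo1, a Wnt agonist of the gonad and other tissues, followed at 0.452, and Aldh1a2 and Wt1 at 0.382 and 0.377. Its antisense neighbour Emx2os closed the 5, at 0.325. These values rest on few high cells and on shared libraries.

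Between E9.5 and E10, edgeR's quasi-likelihood test on counts summed per batch called 0 of 14103 genes at an adjusted p of 0.05 (0% called, and 0% called higher at E10). Of the 14103, 1119 had an unadjusted p under 0.05 (7.93%), and DESeq2 called 88 of 12997 (0.677%). None of the 5 genes was called by edgeR. In simulated data the same test recovered 18% of genes with a log2 change of 2 and 69% of those with one of 4. A lack of calls therefore does not show that the stages are alike. Each batch holds 1 stage, so differences between collections and between stages cannot be told apart. Lhx9 had the smallest p of the 5. The CPM of its summed counts was 0 and 0.119 at E9.5 and 16.3, 4.41 and 10.2 at E10, so the stages did not overlap. How many of the 14103 genes likewise had no overlap was not counted, so nothing is drawn from it. The log2 fold change was 7.06 (SE 1.33, adjusted p = 0.616), and DESeq2 gave 7.14 with an adjusted p of 0.00855. With a single UMI at E9.5, the ratio of the summed CPM was 186, with a counting interval of 33.3 to 7341.

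Pax6 had no UMI at E9.5 and was at 24.3, 1.24 and 1.09 CPM of the sum in the E10 batches. Against 3 counts over the E9.5 group it was at least 67.7-fold higher at E10, and at least 6.21-fold higher without E10 replicate 1. These limits count UMIs, not cells. The highest cell held 25 of the 30 UMIs of E10 replicate 2 and another 10 of the 22 of replicate 3, so the second value rests on few cells. The fitted log2 fold change, which depends on the prior count, was 10.42 (SE 3.08), and the adjusted p was 0.616 by edgeR and 0.0296 by DESeq2. Six3 was removed by edgeR's filter on low counts. Its ratio of 161 (28.8 to 6357) rests on 1 UMI at E9.5 and on E10 replicate 1, which holds 894 of its 897 UMIs at E10.

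Lhx2 stood at 2.12 and 0.60 CPM of the sum at E9.5 and 2.68, 5.98 and 11.2 at E10, a log2 fold change of 2.26 (SE 1.07, adjusted p = 0.622 by edgeR). The lowest E10 batch lay just above the highest E9.5 batch. Emx2 stood at 4.11 and 5.01 CPM at E9.5 and 20.5, 6.43 and 1.88 at E10, so the stages overlapped, with a log2 fold change of 0.89 (SE 0.97, adjusted p = 0.809). Without E10 replicate 1 the change was -0.10. Of 22 other forebrain and eye regulators 8 could be tested and 0 were called, with a median log2 fold change of 0.31 against 0.09 over all genes tested.

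Shares of cells on, which weigh the cells of a batch alike, were averaged over the batches of a stage. By these means no stage difference could pass, since 10 splits of 5 batches allow no exact permutation p below 0.1. Lhx9 was on in a mean of 5.20% of cells over the E10 batches (SD 2.66 over 3 batches) and in 0% of E9.5 cells in both batches (two-sided exact permutation p = 0.2). Lhx2 was on in 4.74% (SD 2.15, n = 3) and 1.09% (SD 1.54, n = 2), with an exact p of 0.2, and Emx2 in 6.20% (SD 5.59) and 5.18% (SD 1.89), with an exact p of 1. For Pax6 the E10 shares were 14.9%, 0% and 1.59%, and for Six3 10.3%, 0% and 0%, against 0% in both E9.5 batches (exact permutation p of 0.7 and 1). For Pax6, Six3 and Emx2 the SD of the E10 batches thus exceeded the difference between the stage means. For Lhx9 and Lhx2 it did not, though their E10 shares ran from 2.78% to 8.05% and from 2.30% to 6.35%. Their stage differences were 5.20 and 3.65 points.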

How the data were processed

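UMI counts of single cells were read from the table deposited by the authors: whole numbers per gene and well, not normalised. Per the labels' protocols, libraries followed a modified STRT-seq method with an 8-base cell barcode, while the series description names Smart-Seq. Per the submitters' processing notes, CASAVA 1.8, TopHat2 2.0.12 and HTSeq (no version given) were used with mm10. Strand in counting is not given in the sources used here. Wells were tied to the 5 samples by the batch number in their names alone.

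Spike-in rows (95, 4.33% of UMIs) were dropped. Clustering used Python 3.11.15, scanpy 1.11.5 and, for Leiden, leidenalg 0.10.2 (2000 variable genes, 20 components, 15 neighbours, resolution 1, seed 0), and clusters named from at least 3 fixed markers, with 1 or more among the 10 leading genes. No doublet caller was run on hand-picked cells. Thinned shares are expectations at 30000 UMIs. Intervals are exact (Clopper-Pearson) and, like limits of 3 counts, cover counting error only.

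Batch sums (7545865, 8380810, 44415774, 24267995 and 20181093 UMIs) were tested with edgeR 4.0.16 under R 4.3.3 (filterByExpr, TMM, quasi-likelihood, Benjamini-Hochberg). DESeq2 1.42.0 and limma 3.58.1 (trend, 1 added to CPM) were alternatives, as were other limits, filters and leaving out each batch. The edgeR test was also run on simulated data with 100 genes changed at each of 2 sizes. It recovered 18% of those with a log2 change of 2 and 69% of those with one of 4. Of its 92 calls, 5 were false. The 5 genes, the lists and the limits were chosen with earlier results of these data known. Named genes are the 5, Prrx1, the up to 5 highest of each list in cells on for 3 or more, and the 5 most similar to each gene; other genes named for pairs were chosen after their values were seen.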

Additional observations from a re-analysis of the deposited data

Results flagged for a closer look

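Wells with 5000 to 30000 UMIs were left out of every comparison above, and some of them held the genes. In 9 such wells of E10 replicate 1, the summed level was 1045 CPM for Pax6 (166 UMIs in 6 wells), 837.4 CPM for Six3 (133 UMIs in 7 wells) and 371.5 CPM for Lhx9 (59 UMIs in 4 wells), out of 158831 UMIs. In the kept cells of the batch the levels of the sums were 24.3, 20.1 and 16.3 CPM. Single wells reached 3735 CPM of Pax6 and 2958 CPM of Six3, while Lhx2 was at 0 and Emx2 at 2 UMIs. In 20 such wells of E10 replicate 2, Lhx9 was at 18.1 CPM from 4 UMIs of 1 well. Each of the 20 best matched the well of the same number in E10 replicate 3, and the 4 UMIs lay in well 77, whose partner there is the cell with 325.1 CPM of Lhx9. None of the 9 wells of E10 replicate 1 had such a match. Each of these 4 values stands out because it passes the 3 counts that a total of 0 allows; there are no control samples. What gives the shallow wells their counts was not tested.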

How the results depend on the processing

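No paired analysis was possible because the replicate numbers were given in accession order and pair nothing. By stage, DESeq2 called 88 genes against 0 by edgeR, and gave 8.27 for Pax6 and 7.14 for Lhx9, both past the threshold; the cause was not tested. No other setting called any gene. Leaving out each batch in turn, the log2 fold change ran from 7.15 to 10.95 for Pax6, 6.09 to 10.94 for Lhx9, 1.68 to 3.26 for Lhx2 and -0.10 to 1.37 for Emx2, which reversed at -0.10 without E10 replicate 1. On mean CPM per cell, limma gave lower changes, 2.41 for Pax6, 3.34 for Lhx9, 1.72 for Lhx2 and 0.13 for Emx2. That fit weighs the cells of a batch alike and uses log2(CPM + 1), and what lowers the changes was not tested. Without blood-like clusters edgeR put Lhx9 at 10.74. Leaving out each batch, the stage difference in cells on ran from 0.794 to 8.27 points for Pax6, 0 to 5.17 for Six3, 3.77 to 6.40 for Lhx9, 2.56 to 4.87 for Lhx2 and -2.21 to 2.73 for Emx2, and that of Emx2 was -0.108 with cells from 5000 UMIs, -0.323 without E9.5 replicate 1 and -2.21 without E10 replicate 1. The limit of 5000 UMIs adds well 1 of E9.5 replicate 2, at 580.7 CPM of Emx2 from 3 UMIs. That well best matched the same-numbered well of E9.5 replicate 1, at 1.35% of its depth. The limit also adds well 79 of E10 replicate 1, at 70.88 CPM from 1 UMI. At 20 CPM, at 100 CPM and as the expected share at 30000 UMIs, the difference was 13.8, 1.92 and 14.5 points for Pax6, 9.96, 2.30 and 9.91 for Six3, 8.20, 2.53 and 9.08 for Lhx9, 2.11, 2.98 and 3.91 for Lhx2 and 1.08, 0.215 and 2.75 for Emx2. The share of cells on for 3 or more genes ran from 0 to 0.901% without each batch, was 0 at 100 CPM or without E10 replicate 1, which has both cells, and was 1.70% at 20 CPM and 1.53% with cells from 5000 UMIs, where the share of those cells on for Prrx1 was 60% against 100%. Genes with the batch-wide pattern of Pax6 and Six3 numbered 3, and 9, 4 and 16 under other limits chosen after seeing the data (50% and 10%, 70% and 20%, and expected shares of 25% and 5% at 30000 UMIs). Pax6 and Six3 were among them each time. Depth limits cells with few UMIs: 50 CPM is 2 UMIs at 31294.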
